A study of Mus musculus with 12 samples.

Results

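The 10 genes described here, which serve fatty acid and cholesterol handling, were followed through the myeloid cells of the mouse bone marrow: the nuclear receptor genes Pparg and Nr1h3, the fatty acid uptake and binding genes Lpl, Cd36, Fabp4 and Fabp5, the lipid droplet gene Plin2, and the cholesterol efflux genes Abca1, Abcg1 and Apoe. They were found by mouse symbol among the Ensembl rows of the deposited tables, and all 10 were present among 56953 listed genes, of which 42933 had at least 1 count. Bone marrow was taken from 8-week-old female C57BL/6J mice of the genotype Rank cre/+;R26.eYFP fl/+, which all 4 groups shared. The groups, with 3 libraries each, were eYFP+ and eYFP- F4/80hi macrophages, gated as positive for CD206 and VCAM1, and Ly6Clo and Ly6Chi monocytes. In these mice Cre is driven by the Rank gene, which marks macrophages of embryonic origin and is not active in adult stem or progenitor cells, so that eYFP+ cells are read as embryonic and eYFP- cells as adult-derived. A cell of embryonic origin that escaped recombination would be sorted as eYFP-. The sources used here do not state how many mice stand behind a library or whether the groups share mice, so p-values measure the spread between these libraries, which may in part be technical.

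PPARγ, the product of Pparg, is a nuclear receptor that binds fatty acid derivatives and, paired with a retinoid X receptor, switches on genes of fatty acid uptake, binding and storage, in fat cells as well as in macrophages. LXRα, the product of Nr1h3, binds oxysterols, which accumulate when a macrophage takes up cholesterol, and switches on genes that export it. Macrophages of the bone marrow engulf dying blood cells and the nuclei expelled by erythroblasts, and both carry a load of membrane lipid.

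Both receptors and their partners recognise copies of the half-site AGGTCA, set apart by 1 base for PPARγ and by 4 bases for LXRα. To show the letters these receptors read, the 250 bases before an annotated start are given for Pparg itself and for Cd36 and Abca1, textbook targets of PPARγ and of LXRα. The sequences are from RefSeq on GRCm38.p6, on the strand of the gene, at chr6:115360894-115361143 (plus strand, the start 1 of 3 listed for Pparg), chr5:17835897-17836146 (minus strand, Cd36) and chr4:53159896-53160145 (minus strand, Abca1). Capitals mark matches on either strand to AGGTCA in Pparg and Cd36, and in Abca1 a match on the opposite strand to the looser letters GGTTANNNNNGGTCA, which hold no AGGTCA.
Pparg: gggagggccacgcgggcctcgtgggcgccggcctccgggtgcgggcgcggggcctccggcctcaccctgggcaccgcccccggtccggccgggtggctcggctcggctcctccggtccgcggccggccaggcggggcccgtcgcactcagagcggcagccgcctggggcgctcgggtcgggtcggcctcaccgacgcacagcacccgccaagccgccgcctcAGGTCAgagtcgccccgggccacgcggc
Cd36: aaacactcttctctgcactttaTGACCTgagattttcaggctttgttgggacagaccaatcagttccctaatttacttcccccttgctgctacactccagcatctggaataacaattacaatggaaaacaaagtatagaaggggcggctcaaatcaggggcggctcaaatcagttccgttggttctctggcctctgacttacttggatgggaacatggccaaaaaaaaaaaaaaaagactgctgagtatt
Abca1: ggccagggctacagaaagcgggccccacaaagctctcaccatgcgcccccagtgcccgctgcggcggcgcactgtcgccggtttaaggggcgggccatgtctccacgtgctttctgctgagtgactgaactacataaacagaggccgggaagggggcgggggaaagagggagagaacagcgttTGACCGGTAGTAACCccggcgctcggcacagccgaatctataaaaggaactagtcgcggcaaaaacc

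The half-site AGGTCA was present in 16.3% of 32851 promoter windows of 300 bases, both strands searched, so a match by itself is common. Of the members with a listed window, it was found at -28 and -9 from 2 of the 3 starts of Pparg, at -228 in Cd36 and at -218 in Plin2, and it was not found in the windows of Nr1h3, Apoe and Abca1. The letters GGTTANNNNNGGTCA, written down after the Abca1 window had been read, were present in 16 windows, 0.0487% of all, and in Abca1 they lay at -67. The stricter pair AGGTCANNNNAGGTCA was present in 0.0152% of windows, and AGGTCANAGGTCA in 0.0396%, and neither was found in a window of a member. Fabp4, Fabp5, Lpl and Abcg1 were not among the entries. A match is a run of letters and says nothing of binding.

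Total counts per library lay between 26390927 and 48618187. The macrophage gates matched their labels: 10 macrophage marker genes summed to between 33629 and 49020 TPM, counts divided by gene length and scaled to the same sum in every library, in the 6 macrophage libraries and to at most 1268 in the monocytes. The macrophage groups did not overlap in this sum, which was 44956 to 49020 TPM in eYFP+ and 33629 to 38382 TPM in eYFP- cells, and none of the 10 genes was called between them. Ly6c2 separated the monocyte gates, with 5809 to 6963 TPM in Ly6Chi and 32.4 to 77.5 TPM in Ly6Clo cells. In the Ly6Clo library of replicate 2 and the eYFP+ library of replicate 1, transcripts rich in G and C were low relative to their own group, with median log2 differences of -1.24 and -0.72. That Ly6Clo library also had the lowest total count and the fewest genes with a count, 16434 against 24769 and 22254 in Ly6Clo replicates 1 and 3. The transcripts of the members range from 38.4% GC in Cd36 to 59.5% GC in Apoe. Some values below are also given without Ly6Clo replicate 2 or eYFP+ replicate 1, or with a correction for GC content.

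Fat cells also express Pparg, Fabp4, Lpl and Cd36, and their markers were low: 9 adipocyte genes summed to at most 36.04 TPM in any library. Of these Lep, the leptin gene, was at most 0.108 TPM, whereas Adipoq, the adiponectin gene, was at most 4.66 TPM in eYFP+ and 8.42 to 31.4 TPM in eYFP- macrophages, at most 6.23 TPM in Ly6Clo and at most 15.1 TPM in Ly6Chi monocytes. The summed level of the list was 6.77 to 7.86 TPM in eYFP+ macrophages, 11.7 to 36.04 in eYFP- macrophages, 5.01 to 13.7 in Ly6Clo and 0.742 to 16.1 in Ly6Chi monocytes. No gene of that list passed the test between the macrophage groups, 1 was higher in macrophages than in monocytes and 2 were lower in Ly6Chi than in Ly6Clo cells. The 9 endothelial genes summed to 2.16 to 3.66 TPM in eYFP+ and to 20.9 to 34.2 TPM in eYFP- macrophages, and 2 of them were lower in the former. The 9 erythroid genes summed to 8822 to 14423 TPM in eYFP+ and 22325 to 35222 TPM in eYFP- macrophages, with 3 lower in eYFP+ cells. In monocytes the endothelial list stayed between 1.91 and 6.71 TPM and the erythroid list between 361 and 1409 TPM. The 6 dendritic genes summed to 604 to 2829 TPM in Ly6Clo and to 110 to 123 TPM in Ly6Chi monocytes, mostly Cd209a, and 4 of them were lower in the Ly6Chi cells. In macrophages the dendritic list summed to 3.77 to 9.85 TPM in eYFP+ and 19.9 to 34.7 TPM in eYFP- cells, with 3 lower in the former. The 9 neutrophil genes summed to 122 to 200 TPM in eYFP+ and 239 to 2618 TPM in eYFP- macrophages, with 4 lower in the former, and to 6727 to 15871 TPM in Ly6Clo and 15878 to 24014 TPM in Ly6Chi monocytes, with 3 higher in Ly6Chi cells. The 7 megakaryocyte and platelet genes, mostly Pf4, summed to 122 to 201 TPM in macrophages, 60.3 to 77.4 TPM in Ly6Clo and 2.14 to 3.98 TPM in Ly6Chi monocytes. Of them 1 was lower in eYFP+ than in eYFP- macrophages, 2 were lower in Ly6Chi than in Ly6Clo cells and 3 were higher in macrophages than in monocytes. The 8 marrow stroma genes summed to 34.1 to 63.8 TPM in eYFP+ macrophages, 64.5 to 84.7 in eYFP- macrophages, 4.03 to 19.7 in Ly6Clo and 1.79 to 33.1 in Ly6Chi monocytes, and none was called between the macrophage groups. In macrophages most of this sum was Kitl and Cxcl12, whose ranges shifted in opposite directions. Kitl was at 23.99 to 52.5 TPM in eYFP+ and 10.2 to 38.8 TPM in eYFP- macrophages, with overlap. Cxcl12 was at 6.07 to 13.2 TPM in eYFP+ and 34.2 to 62.9 TPM in eYFP- macrophages, without overlap. Lepr was at 0.125 to 0.299 and 1.01 to 2.46 TPM in the same groups, also without overlap. The 7 classical monocyte genes summed to 8.32 to 9.31 TPM in eYFP+ and 10.4 to 134.7 TPM in eYFP- macrophages, with 2 lower in the former. The 8 genes of Ly6Clo monocytes summed to 712 to 1193 TPM in eYFP+ and 723 to 871 TPM in eYFP- macrophages, again with 2 lower in eYFP+ cells. Most of this sum was Treml4, at 625 to 1073 TPM in eYFP+ and 610 to 731 TPM in eYFP- macrophages. Both monocyte lists followed their gates, with 4 classical genes higher and 5 genes of the Ly6Clo list lower in Ly6Chi cells. The 7 lymphocyte genes summed to 475 to 703 TPM in macrophages and 28.7 to 140.2 TPM in monocytes, with 2 lower in Ly6Chi than in Ly6Clo cells. No marker of these 10 lists was at 0 in every library, and the part of such cells in the results below was not tested. In sorted bulk samples, fewer cells that express a gene and less RNA per cell cannot be told apart.

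Pparg was high in both macrophage groups, intermediate in Ly6Clo and low in Ly6Chi monocytes. It was measured at 403, 318 and 345 TPM in the eYFP+ libraries and at 332, 288 and 325 TPM in the eYFP- libraries. In Ly6Clo monocytes it reached 138, 217 and 124 TPM, and in Ly6Chi monocytes 6.69, 3.43 and 3.52 TPM. The macrophage libraries all lay above the Ly6Clo libraries, and these all lay above the Ly6Chi libraries, while the macrophage groups overlapped. The fitted log2 fold change of Ly6Chi against Ly6Clo was -5.14 ± 0.38 (SE, DESeq2 adjusted p = 1.29e-37), a level 35.3-fold higher in Ly6Clo cells. eYFP+ macrophages exceeded Ly6Clo monocytes by a log2 fold change of 1.07 ± 0.38 (DESeq2 adjusted p = 0.0204). This call was lost in 5 of 26 alternative analyses: the GC correction (log2 0.87, DESeq2 adjusted p = 0.1001), a fit on the 2 groups alone (0.105), and leaving out eYFP+ replicate 1 (0.107), Ly6Clo replicate 1 (0.0898) or Ly6Clo replicate 3 (0.105). For eYFP- macrophages the same difference was 0.86 ± 0.38 and did not pass (DESeq2 adjusted p = 0.0774). It passed in 4 of 26 alternatives: TMM scaling (DESeq2 adjusted p = 0.0490), 2 limma fits (limma adjusted p = 0.0113 and 0.0177) and leaving out Ly6Clo replicate 2 (log2 1.15, DESeq2 adjusted p = 0.00347). The step from Ly6Chi to Ly6Clo monocytes was thus large against its error, while the step from Ly6Clo monocytes to macrophages passed or missed the threshold with the libraries and settings used.

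**Figure D1:**
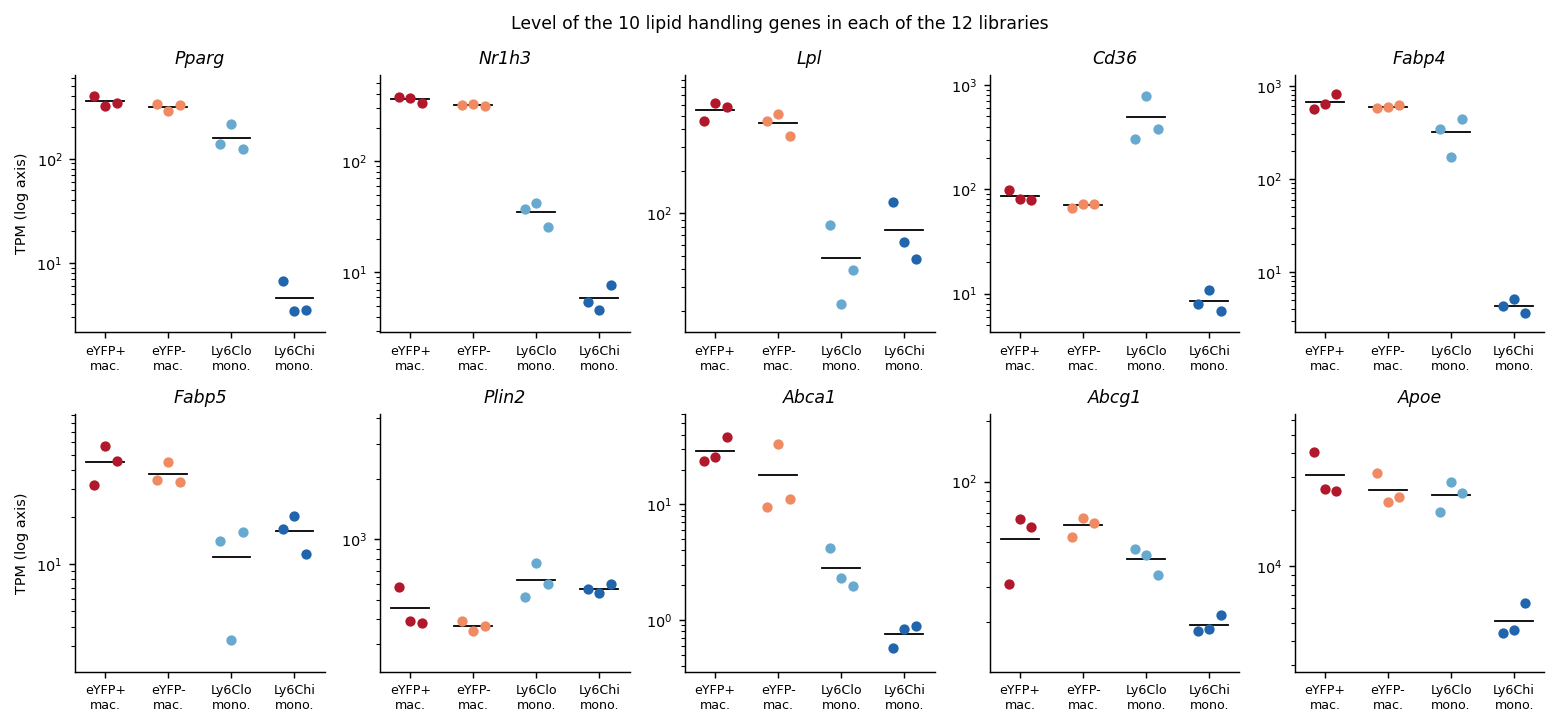
Level in TPM on log axes (vertical) of each of the 10 genes in the 3 libraries of each group (horizontal, replicates 1 to 3 from left to right); points are libraries and lines are group means. Pparg and Fabp4 are low only in Ly6Chi monocytes, Nr1h3, Lpl and Abca1 are high in both macrophage groups, Cd36 is highest in Ly6Clo monocytes (301 to 789 TPM), and Plin2 stays between 352 and 761 TPM in all 12 libraries.

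Nr1h3 was high in macrophages and low in both monocyte groups. It stood at 374, 365 and 335 TPM in eYFP+ macrophages and at 320, 323 and 312 TPM in eYFP- macrophages. Ly6Clo monocytes held 36.8, 42.2 and 25.7 TPM and Ly6Chi monocytes 5.41, 4.62 and 7.66 TPM, so that no monocyte library came near a macrophage library. Macrophages exceeded monocytes by a log2 fold change of 4.46 ± 0.22 (DESeq2 adjusted p = 4.11e-92), or 22-fold. Ly6Chi cells were lower than Ly6Clo cells by a log2 fold change of -2.57 ± 0.31 (DESeq2 adjusted p = 2.25e-14). Each macrophage group also exceeded the Ly6Clo monocytes, with log2 fold changes of 3.28 ± 0.30 (eYFP+, DESeq2 adjusted p = 2.44e-25) and 3.07 ± 0.30 (eYFP-, DESeq2 adjusted p = 3.92e-22). With the GC correction Nr1h3 was lower in Ly6Chi than in Ly6Clo cells by -3.17 and higher in eYFP- macrophages than in Ly6Clo cells by 2.42, and both calls held. Pparg and Nr1h3 thus had the same order of groups but a different place for the Ly6Clo monocytes, which held 159.6 TPM of Pparg and 34.9 TPM of Nr1h3 on average.

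Related receptors and a partner were set beside these members. Nr1h2, which encodes the widely expressed LXRβ, had group means between 125 and 132 TPM in all 4 groups. The ratio of Nr1h3 to Nr1h2 in TPM accordingly had medians of 2.85 in eYFP+ macrophages, 2.59 in eYFP- macrophages, 0.250 in Ly6Clo and 0.0436 in Ly6Chi monocytes. In every macrophage library Nr1h3 was above Nr1h2, and in every monocyte library it was below. Ppard, which encodes PPARδ, had group means between 1.49 and 2.74 TPM, and the ratio of Pparg to Ppard had medians of 189, 170, 68.2 and 1.40 in the same order of groups. In Ly6Clo monocytes it was spread widely, at 37.3, 553 and 68.2, and replicate 2 lay above every macrophage library, of which the highest was 403. Ppara, the receptor of fatty acid oxidation in liver, was at or below a mean of 0.0307 TPM in every group. Rxra, a partner of both receptors, was 51.6 ± 10.7 TPM in eYFP+ macrophages, 30.8 ± 18.2 in eYFP- macrophages, 3.47 ± 1.84 in Ly6Clo and 10.5 ± 3.48 in Ly6Chi monocytes (SD, n = 3 each). Like Pparg and Nr1h3, Rxra was called higher in macrophages than in monocytes (log2 fold change 2.61 ± 0.33, DESeq2 adjusted p = 1.12e-13).

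**Figure D2:**
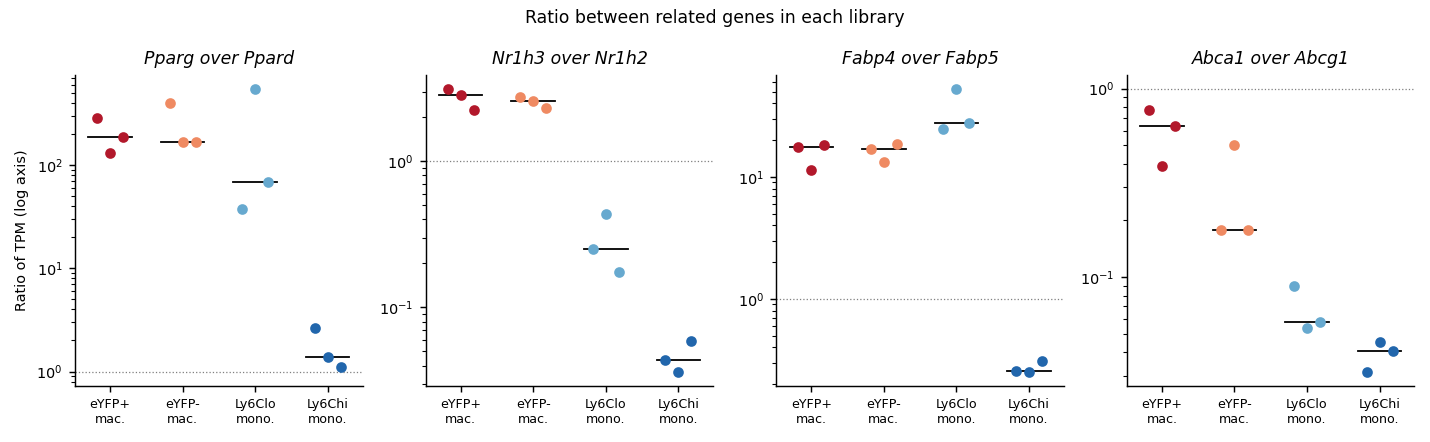
Ratio of TPM between related genes on log axes (vertical) in each library (points) of the 4 groups (horizontal); lines are group medians and the dotted line marks a ratio of 1. Nr1h3 exceeds Nr1h2 in the 6 macrophage libraries and not in the monocytes, Fabp4 falls below Fabp5 in Ly6Chi monocytes (medians 17.6, 16.8, 27.6 and 0.258 from left to right), and Abcg1 exceeds Abca1 in every library.

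Lpl, which encodes the lipoprotein lipase that frees fatty acids from triglyceride-rich lipoproteins, was a macrophage transcript. It was measured at 461, 615 and 580 TPM in eYFP+ macrophages and at 457, 517 and 356 TPM in eYFP- macrophages. Ly6Clo monocytes held 82.5, 22.6 and 39.2 TPM and Ly6Chi monocytes 120.3, 62.8 and 47.3 TPM. The monocyte groups overlapped, and every macrophage library lay above every monocyte library. The log2 fold change of macrophages against monocytes was 2.94 ± 0.33 (DESeq2 adjusted p = 1.59e-17). Between Ly6Chi and Ly6Clo cells it was 0.71 ± 0.47 (95% interval -0.20 to 1.63, DESeq2 adjusted p = 0.405), and without Ly6Clo replicate 1 it rose to 1.28 and passed (DESeq2 adjusted p = 0.0409).

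Cd36, the scavenger receptor that takes up long-chain fatty acids and oxidised lipoproteins, had a different order from every other member. Ly6Clo monocytes held the most, with 301, 789 and 380 TPM. The eYFP+ macrophages followed with 98.0, 80.5 and 79.6 TPM and the eYFP- macrophages with 66.2, 72.8 and 71.6 TPM, while Ly6Chi monocytes held 7.98, 10.8 and 6.80 TPM. None of the 4 groups overlapped with another. Ly6Clo monocytes exceeded Ly6Chi monocytes 58.5-fold (log2 fold change of Ly6Chi against Ly6Clo -5.87 ± 0.41, DESeq2 adjusted p = 7.08e-43). They also exceeded eYFP+ macrophages 6.08-fold (log2 fold change of eYFP+ against Ly6Clo -2.60 ± 0.41, DESeq2 adjusted p = 4.03e-09) and eYFP- macrophages 7.71-fold (-2.95 ± 0.41, DESeq2 adjusted p = 2.24e-11). Without Ly6Clo replicate 2 these 3 log2 fold changes of Cd36 were -5.28, -2.07 and -2.41. Both calls against macrophages held in all 26 alternatives, including the GC correction and the fit without Ly6Clo replicate 2, where Cd36 was highest and transcripts poor in G and C were raised by a median log2 of 0.59. Because the monocyte groups lay on either side of the macrophages, the contrast of all macrophages with all monocytes was 0.16 ± 0.29 (95% interval -0.41 to 0.73, DESeq2 adjusted p = 0.730).

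Fabp4 and Fabp5 encode cytosolic proteins that carry fatty acids, and their patterns diverged. Fabp4 was measured at 565, 642 and 825 TPM in eYFP+ macrophages, at 577, 597 and 620 TPM in eYFP- macrophages and at 346, 174 and 444 TPM in Ly6Clo monocytes. In Ly6Chi monocytes it was 4.34, 5.11 and 3.59 TPM, far under every other library. The log2 fold change of Ly6Chi against Ly6Clo was -6.19 ± 0.36 (DESeq2 adjusted p = 2.41e-63), a 73.1-fold higher level in Ly6Clo cells and the largest monocyte difference among the members. Against Ly6Clo monocytes, eYFP+ macrophages were higher by 0.995 ± 0.343 (DESeq2 adjusted p = 0.0168) and eYFP- macrophages by 0.80 ± 0.34, which did not pass (DESeq2 adjusted p = 0.0706). The first of these was lost in 6 of 26 alternatives, among them the GC correction (log2 0.90, DESeq2 adjusted p = 0.0722) and the fit without eYFP+ replicate 3 (0.101). The second passed in 4 of 26: the filter of 10 counts in 3 libraries (DESeq2 adjusted p = 0.0446), 2 limma fits (limma adjusted p = 0.0241 and 0.0288) and the fit without Ly6Clo replicate 3 (log2 1.11, DESeq2 adjusted p = 0.00739).

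Fabp5 was a much less abundant transcript. It was 32, 56.9 and 45.5 TPM in eYFP+ macrophages and 34.3, 45.0 and 33.5 TPM in eYFP- macrophages. Ly6Clo monocytes held 14.1, 3.30 and 16.1 TPM and Ly6Chi monocytes 16.8, 20.2 and 11.7 TPM, so all macrophage libraries lay above all monocyte libraries. The log2 fold change of macrophages against monocytes was 1.51 ± 0.35 (DESeq2 adjusted p = 7.77e-05). Ly6Chi and Ly6Clo cells differed by 0.56 ± 0.49 (95% interval -0.40 to 1.52, DESeq2 adjusted p = 0.567), and by 0.14 without Ly6Clo replicate 2 (DESeq2 adjusted p = 0.908). Fabp4 was 11.3 to 18.5 times as abundant as Fabp5 in macrophages and 24.5 to 52.8 times in Ly6Clo monocytes, whereas in Ly6Chi monocytes the ratio was 0.253 to 0.308. The mouse genome holds processed copies of Fabp5, and since read pairs with more than 1 possible gene were not counted, its level may be understated.

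Plin2 encodes perilipin 2, the coat protein of lipid droplets in most cells outside fat, and it varied least. It was 581, 394 and 386 TPM in eYFP+ macrophages, 393, 352 and 369 TPM in eYFP- macrophages, 515, 761 and 602 TPM in Ly6Clo monocytes and 564, 542 and 598 TPM in Ly6Chi monocytes. Apart from eYFP+ replicate 1, the macrophage libraries lay under the monocyte libraries. It was the one member called lower in macrophages than in monocytes, with a log2 fold change of -0.63 ± 0.23 (DESeq2 adjusted p = 0.0176). This call was lost in 6 of 25 alternatives, in 5 of them by leaving out 1 library: eYFP- replicate 2 (DESeq2 adjusted p = 0.0968) or 3 (0.0551), Ly6Chi replicate 3 (0.0514), or eYFP+ replicate 2 (0.0998) or 3 (0.0673). Neighbouring groups in its order of levels did not differ beyond their spread, and between Ly6Chi and Ly6Clo cells the difference was -0.15 ± 0.32 (95% interval -0.77 to 0.47).

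Abca1 encodes the transporter that passes cholesterol to lipid-poor apolipoprotein A-I. It was 23.8, 25.5 and 37.8 TPM in eYFP+ macrophages and 9.50, 33.2 and 11.1 TPM in eYFP- macrophages. Ly6Clo monocytes held 4.17, 2.33 and 1.98 TPM and Ly6Chi monocytes 0.573, 0.835 and 0.884 TPM. The groups stepped down without overlap from macrophages to Ly6Clo and on to Ly6Chi cells, and within the macrophages the eYFP- group was split, with replicate 2 far above the other two. Macrophages exceeded monocytes by a log2 fold change of 3.83 ± 0.33 (DESeq2 adjusted p = 7.28e-30). Ly6Chi cells were lower than Ly6Clo cells by -1.87 ± 0.47 (DESeq2 adjusted p = 0.00185), a call that was lost in 4 of 26 alternatives, 3 of them fits of TPM with limma (limma adjusted p = 0.0525 to 0.415).

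Abcg1, the transporter that passes cholesterol to high-density lipoprotein, was more even. It was 30.8, 65.2 and 59.4 TPM in eYFP+ macrophages, 53.3, 66.0 and 62.4 TPM in eYFP- macrophages, 46.2, 43.4 and 34.1 TPM in Ly6Clo monocytes and 18.1, 18.5 and 21.6 TPM in Ly6Chi monocytes. The Ly6Chi libraries lay under all others. Their log2 fold change against Ly6Clo monocytes was -1.08 ± 0.28 (DESeq2 adjusted p = 0.00349), which was lost in 3 of 26 alternatives. Macrophages as a whole exceeded monocytes by 0.87 ± 0.20 (DESeq2 adjusted p = 8.81e-05), but neither macrophage group was called against Ly6Clo cells (0.22 ± 0.28 with DESeq2 adjusted p = 0.618 for eYFP+, 0.43 ± 0.28 with DESeq2 adjusted p = 0.273 for eYFP-). The ratio of Abca1 to Abcg1 had medians of 0.637, 0.178, 0.0580 and 0.0408 in eYFP+ macrophages, eYFP- macrophages, Ly6Clo and Ly6Chi monocytes. It was 0.771, 0.391 and 0.637 in the eYFP+ libraries and 0.178, 0.503 and 0.178 in the eYFP- libraries, so the macrophage groups overlapped.

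Apoe encodes apolipoprotein E, which macrophages secrete and which accepts exported cholesterol. By mean TPM it was the most abundant gene of both macrophage groups, ranked 2 in Ly6Clo and 12 in Ly6Chi monocytes, and it took 2.25%, 2.01%, 2% and 0.425% of counts in these groups. Its level was 40390.2, 25622 and 25242 TPM in eYFP+ macrophages, 31416, 22056 and 23299 TPM in eYFP- macrophages, 19343, 27998 and 24414 TPM in Ly6Clo monocytes and 4408, 4586 and 6388 TPM in Ly6Chi monocytes. The other groups overlapped and the Ly6Chi libraries lay apart. Ly6Chi cells were lower than Ly6Clo cells by a log2 fold change of -2.23 ± 0.37 (DESeq2 adjusted p = 1.77e-07), or 4.69-fold, and with the GC correction by -2.97, or 7.85-fold (DESeq2 adjusted p = 1.93e-05). Against Ly6Clo monocytes the eYFP+ macrophages differed by 0.28 ± 0.37 (95% interval -0.44 to 1.01) and the eYFP- macrophages by -0.01 ± 0.37 (95% interval -0.74 to 0.72), and the sign of both changed between alternatives. With the GC correction these differences of Apoe were -0.17 and -0.86 (DESeq2 adjusted p = 0.873 and 0.282). The contrast of all macrophages with all monocytes was 1.25 ± 0.26 (DESeq2 adjusted p = 1.28e-05), and with the GC correction 0.97, which did not pass (DESeq2 adjusted p = 0.0542).

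Set side by side, the members called between Ly6Chi and Ly6Clo monocytes numbered 7 of 10 (Pparg, Nr1h3, Cd36, Fabp4, Abca1, Abcg1 and Apoe), all lower in Ly6Chi cells, where 8.62% of 21567 tested genes were called in either direction, 789 higher and 1070 lower. The median log2 fold change of the members was -2.05, against 0.02 over all tested genes. edgeR's quasi-likelihood test also called 7. Of the 10 macrophage marker genes 7 were lower in Ly6Chi than in Ly6Clo cells as well, and the list summed to 683 to 1268 TPM in Ly6Clo and 557 to 656 TPM in Ly6Chi monocytes. Among them Fcna was at 43.4 to 60.8 TPM in Ly6Clo and 6.03 to 8.43 TPM in Ly6Chi cells, and Spic at 35.4 to 72.3 and 4.78 to 6.26 TPM. The part of macrophages among the Ly6Clo cells in these differences was not tested. Between all macrophages and all monocytes 9 members were called, 8 of them higher in macrophages, where 35.3% of 22385 tested genes were called, and the members' median log2 fold change was 2.22 against 0.08. The members were chosen with earlier results of these data known, so these counts describe them and carry no test of the group.

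**Figure D3:**
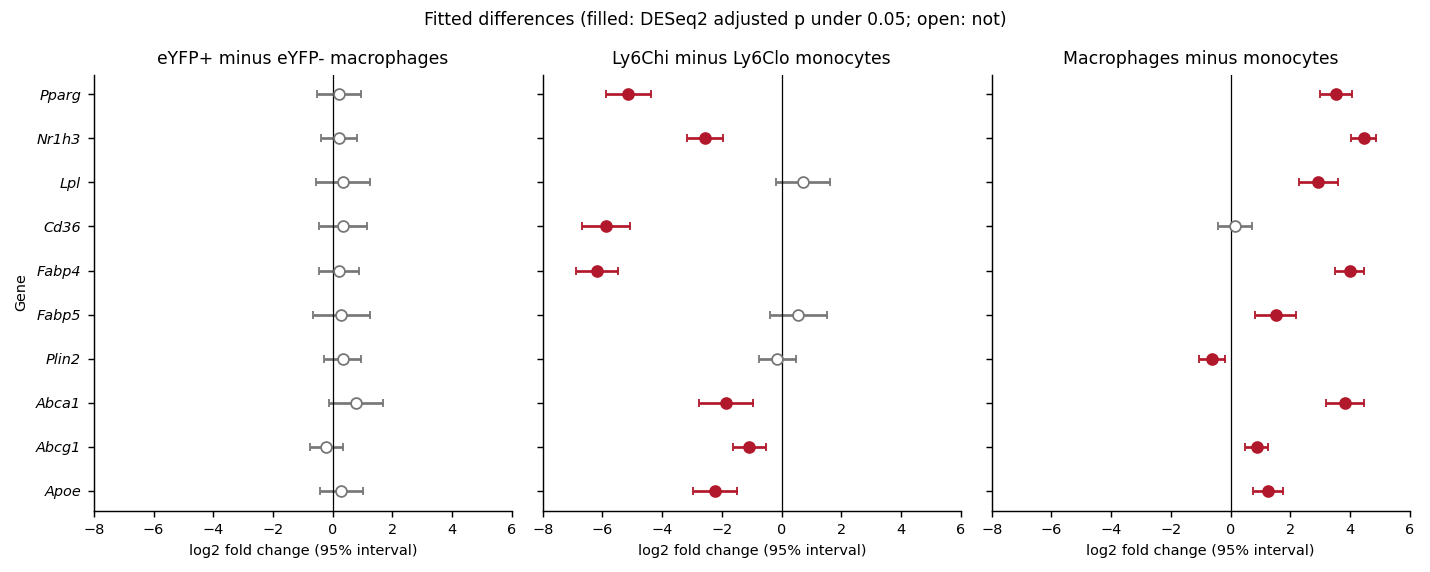
Fitted log2 fold change (horizontal) with its 95% interval for each gene (vertical) in 3 comparisons; filled points passed a DESeq2 adjusted p of 0.05 and open points did not. No gene passed between the macrophage groups, 7 were lower in Ly6Chi than in Ly6Clo monocytes, and 8 were higher and Plin2 lower in macrophages than in monocytes.

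Each macrophage group was also set against each monocyte group, comparisons that share libraries with those above. Against Ly6Chi monocytes, 9 members were higher in eYFP+ macrophages, all but Plin2 (24.5% of all tested genes were called), with log2 fold changes from 1.31 for Abcg1 to 7.19 for Fabp4. For eYFP- macrophages 8 were higher (27.4% of all tested genes), and Fabp5 (1.08 ± 0.49, DESeq2 adjusted p = 0.0839) and Plin2 (-0.72 ± 0.32, DESeq2 adjusted p = 0.0758) did not pass. Against Ly6Clo monocytes the picture was mixed: in eYFP+ macrophages Pparg, Nr1h3, Lpl, Fabp4, Fabp5 and Abca1 were higher and Cd36 was lower, 7 called members where 28% of all tested genes were called. In eYFP- macrophages Nr1h3, Lpl, Fabp5 and Abca1 were higher and Cd36 and Plin2 lower, 6 called members where 26.3% were called. The call of Fabp5 in eYFP+ macrophages against Ly6Chi monocytes (1.37 ± 0.49, DESeq2 adjusted p = 0.0239) was lost in 8 of 26 alternatives, edgeR's quasi-likelihood test among them (edgeR adjusted p = 0.0634), as well as the DESeq2 fits without Ly6Chi replicate 1 (DESeq2 adjusted p = 0.0665) or 3 (0.118) or without eYFP+ replicate 2 (0.118) or 3 (0.0840). The rest were the replicate block in DESeq2 (DESeq2 adjusted p = 0.0695) and in edgeR (edgeR adjusted p = 0.113), and limma without a filter (limma adjusted p = 0.160). The call of Fabp5 in eYFP- macrophages against Ly6Clo monocytes was lost in 2 of 26, the replicate block in edgeR (edgeR adjusted p = 0.0646) and limma without a filter (limma adjusted p = 0.0591). The call of Plin2 in eYFP- macrophages against Ly6Clo monocytes (-0.87 ± 0.32, DESeq2 adjusted p = 0.0271) was lost in 9 of 26, among them the fits without eYFP- replicate 2 (DESeq2 adjusted p = 0.123) or 3 (0.103) and without Ly6Clo replicate 2 (0.0636) or 3 (0.0630). A replicate block also ended this call, in DESeq2 (DESeq2 adjusted p = 0.0607) and in edgeR (edgeR adjusted p = 0.0631). Plin2 was gained in eYFP+ macrophages against Ly6Clo monocytes without eYFP+ replicate 1 (log2 -0.84, DESeq2 adjusted p = 0.0203). In eYFP- macrophages against Ly6Chi monocytes, Fabp5 was gained in 2 of 26 alternatives and Plin2 in 6 of 26. The fit on the 2 groups alone gained Fabp5 (DESeq2 adjusted p = 0.00157) and Plin2 (0.00217). Plin2 was also gained with the filter of 10 counts in 3 libraries (DESeq2 adjusted p = 0.0469) and in 2 limma fits (limma adjusted p = 0.0351 and 0.0353). Leaving out Ly6Clo replicate 2, a library of neither group that shares the scaling and the estimate of the spread, gained Fabp5 (DESeq2 adjusted p = 0.00121) and Plin2 (0.0166). Leaving out eYFP+ replicate 1 gained Plin2 (DESeq2 adjusted p = 0.0263).

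Whether origin goes along with lipid handling was addressed by comparing eYFP+ with eYFP- macrophages, and there 0 of the 10 members passed, against 2.04% of 21567 tested genes. DESeq2 gave no member an unadjusted p under 0.05, and edgeR's quasi-likelihood test called 0 as well. The fitted log2 fold changes were small and mostly positive, 9 of 10 above 0 with a median of 0.29, against 0.05 over all tested genes. The summed macrophage markers were also higher in every eYFP+ than in every eYFP- library, as given above, and their part in these values was not tested. The 95% intervals give the sizes that these libraries leave possible: -0.53 to 0.95 for Pparg, -0.39 to 0.80 for Nr1h3, -0.46 to 1.15 for Cd36 and -0.47 to 0.87 for Fabp4. Lpl (-0.57 to 1.26), Fabp5 (-0.67 to 1.23), Plin2 (-0.29 to 0.96), Abcg1 (-0.77 to 0.34) and Apoe (-0.43 to 1.02) were bounded in the same way. In normalized counts, the eYFP+ libraries of Cd36, Lpl and Fabp4 all lay above the eYFP- libraries, 3 of 10 members, as did those of 6.74% of all tested genes. Abca1 had the largest difference, 0.77 ± 0.46 (95% interval -0.13 to 1.68, DESeq2 adjusted p = 0.733). Its size depended on eYFP- replicate 2, the highest library of its group: without that library it rose to 1.44 and passed (DESeq2 adjusted p = 0.0146), the one call gained by a member in this comparison among 26 alternatives.

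Beyond the members, 86 genes in 5 lists of nuclear receptors and co-regulators, fatty acid uptake, binding and activation, lipid droplets and neutral lipid turnover, cholesterol efflux and LXR targets, and fatty acid oxidation were examined. Between the macrophage groups 2 of 79 tested genes were called, both lower in eYFP+ cells, where 2.04% of all tested genes were called, 33 higher and 406 lower. Without eYFP- replicate 2 there were again 2, but both were higher in eYFP+ cells: Ncoa2, a nuclear receptor coactivator (log2 1.38, DESeq2 adjusted p = 0.0187), and Npc1, which moves cholesterol out of lysosomes (log2 1.15, DESeq2 adjusted p = 0.0183). The 2 genes called with all libraries were named after their values were seen, and both were near the limit of detection. No pathway gene was called without eYFP- replicate 3, and the same held without any 1 of the 3 Ly6Chi libraries, which belong to neither group. Pdk4, which encodes a kinase that restrains glucose oxidation, had 0 counts in the eYFP+ libraries and 0.0625 to 0.501 TPM in the eYFP- libraries (DESeq2 adjusted p = 0.0405). Ffar4, a receptor for long-chain fatty acids, reached at most 0.322 TPM in eYFP+ and 3.01 TPM in eYFP- macrophages, and the groups overlapped (DESeq2 adjusted p = 0.0433). None of the receptor, lipid droplet or efflux lists held a called gene in this comparison.

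Between the monocyte groups 8 of 79 tested genes were called, 6 higher and 2 lower in Ly6Chi cells, where 8.62% of all tested genes were called. Leaving out Ly6Chi replicate 1 left 4 called, leaving out Ly6Clo replicate 2 gave 12, and the GC correction gave 10. Rxra was higher in Ly6Chi cells by a log2 fold change of 1.62 ± 0.47 (DESeq2 adjusted p = 0.0116), although Pparg and Nr1h3, whose products it pairs with, were lower. Npc2, which moves cholesterol out of lysosomes, was higher by 1.34 ± 0.35 (DESeq2 adjusted p = 0.00293). Nceh1, a cholesterol ester hydrolase, was higher by 1.44 ± 0.39 (DESeq2 adjusted p = 0.00457). Bscl2, which encodes the droplet-forming protein seipin, and Cpt1a, the carnitine palmitoyltransferase that admits fatty acids to mitochondria, were higher by 1.17 ± 0.34 (DESeq2 adjusted p = 0.00991) and 1.30 ± 0.41 (DESeq2 adjusted p = 0.0208). G0s2, an inhibitor of the triglyceride lipase of droplets, was lower by -3.62 ± 0.47 (DESeq2 adjusted p = 4.12e-12), with 176 ± 19.5 TPM in Ly6Clo and 14.3 ± 1.40 TPM in Ly6Chi cells (SD, n = 3). Pltp, the phospholipid transfer protein, was lower by -2.74 ± 0.67 (DESeq2 adjusted p = 0.00137). edgeR called 4 of these genes in all, and Rxra, Cpt1a and Pltp were not among them (edgeR adjusted p = 0.0659, 0.0738 and 0.0564).

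Between macrophages and monocytes 44 of 80 tested genes were called, 27 higher and 17 lower in macrophages, where 35.3% of all tested genes were called, 4550 higher and 3363 lower. The fatty acid oxidation list had 8 higher and 1 lower of 16 tested genes and a median log2 fold change of 0.74, against 0.08 over all genes. Its examples were Etfb, an electron carrier of β-oxidation, higher by 2.03 ± 0.21 (DESeq2 adjusted p = 8.12e-20), and Slc25a20, the mitochondrial carnitine carrier, lower by -1.67 ± 0.26 (DESeq2 adjusted p = 1.49e-09). The other lists went both ways, with 4 higher and 2 lower of 15 receptor and co-regulator genes, 6 and 5 of 15 uptake genes, 6 and 4 of 19 droplet genes and 3 and 5 of 15 efflux genes.

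Angptl4, a secreted inhibitor of lipoprotein lipase and a known PPAR target, went along with Lpl itself. It was 134 ± 19.0 TPM in eYFP+ macrophages, 111 ± 9.87 in eYFP- macrophages, 1.71 ± 1.49 in Ly6Clo and 0.680 ± 0.389 in Ly6Chi monocytes (SD, n = 3), with a log2 fold change of macrophages against monocytes of 6.73 ± 0.65 (DESeq2 adjusted p = 2.63e-23). The next 3 genes of lipid breakdown or activation, all higher in macrophages, were Mgll, the monoglyceride lipase (5.45 ± 0.58, DESeq2 adjusted p = 2.01e-19), Lipa, the acid lipase of lysosomes (2.28 ± 0.22, DESeq2 adjusted p = 2.42e-24), and Acsl3, which activates fatty acids (3.10 ± 0.39, DESeq2 adjusted p = 1.49e-14). Lower in macrophages were G0s2 (-3.74 ± 0.34, DESeq2 adjusted p = 1.82e-26), Smpdl3a, a phosphodiesterase and LXR target (-2.33 ± 0.19, DESeq2 adjusted p = 1.34e-31), Abca7, a lipid transporter related to Abca1 (-2.96 ± 0.41, DESeq2 adjusted p = 1.09e-11), and Dgat2, an enzyme of triglyceride synthesis (-1.73 ± 0.30, DESeq2 adjusted p = 7.63e-08). Genes grouped as LXR targets therefore moved in both directions, Abca1 up and Smpdl3a down.

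**Figure D4:**
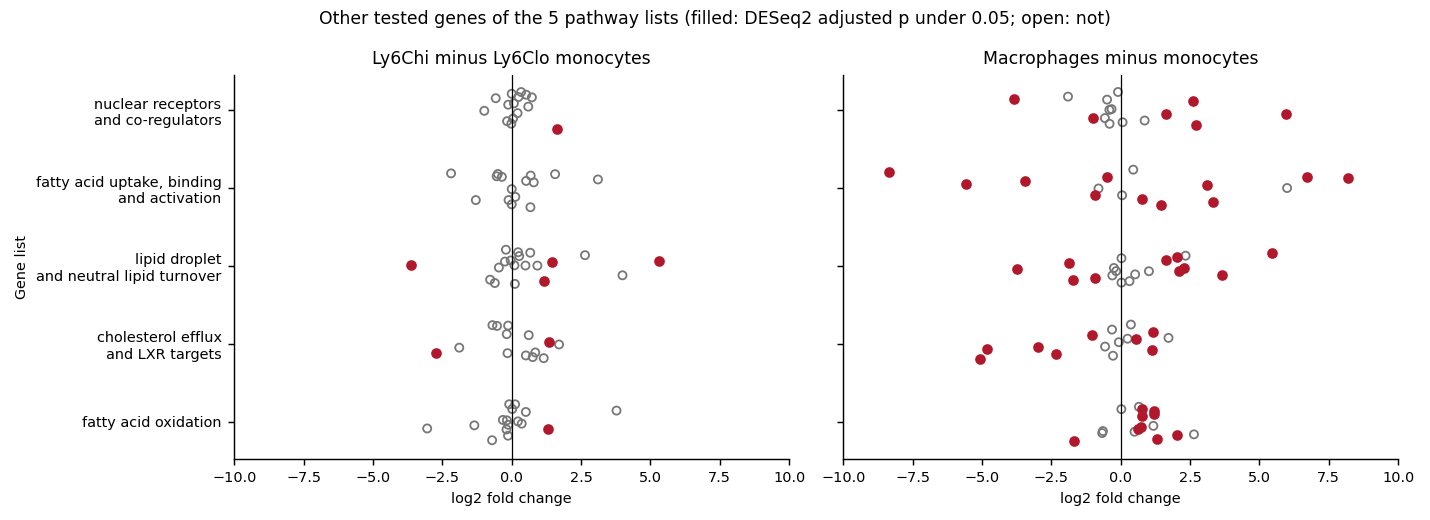
Fitted log2 fold change (horizontal) of the tested genes, other than the 10 members, in each of the 5 pathway lists (vertical, scattered for visibility) for 2 comparisons; filled points passed a DESeq2 adjusted p of 0.05. Between monocyte groups 8 points are filled, 6 of them on the side of Ly6Chi cells, and between macrophages and monocytes 44 are filled on both sides.

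Lastly, the genes whose profile over the 12 libraries was most like that of each receptor were listed, by the root mean square difference of log2 normalized counts after each gene was centred on its own mean, among 11057 genes compared. For Pparg the nearest were Pdgfb, a growth factor chain (0.49), Pf4, a chemokine (0.54), and Tcf7l2, a transcription factor of the Wnt pathway (0.63). Among the members Fabp4 was the nearest to Pparg, ranked 5 (0.68), and Plin2 the farthest, ranked 6532 (2.78). For Nr1h3 the nearest were Serpinb6a, a serine protease inhibitor (0.28), Gpr34, a lysophospholipid receptor (0.34), and Blnk, a signalling adaptor (0.38). Abca1 was the member nearest to Nr1h3, ranked 33 (0.72). These are likenesses of level across 12 libraries of 4 groups and are given as descriptions.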

How the data were processed

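Polyadenylated RNA of sorted bone marrow cells was amplified as full-length cDNA and sequenced in 12 libraries. Reads were trimmed, corrected, cleared of rRNA and aligned to GRCm39 with segemehl by the authors, who counted unambiguous pairs on exons with featureCounts. The deposited counts were whole numbers per gene, the deposited TPM were scaled by the authors for length and depth, and a deposited variance-stabilised table near the log2 scale was not analysed further. Amplified reads without molecular identifiers are not independent molecules, and use of strand is not stated. Total counts were 26390927 to 48618187.

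Groups followed the labels. Counts of all 12 libraries were fitted together in DESeq2 1.42.0 (R 4.3.3), with median-of-ratios scaling, Wald tests, independent filtering and Benjamini-Hochberg adjustment over all genes tested, at an adjusted p of 0.05. Alternatives used edgeR 4.0.16, limma 3.58.1 on log2(TPM + 1) or log2(TPM + 0.1), other scalings and filters, a replicate block, a correction for transcript GC content, and leaving out each library. The methods were tested on simulated data. Overlap was judged on normalized counts in comparisons and on TPM where TPM are given. Symbols from GENCODE M21 matched 91.4% of identifiers, and no coordinates were taken for the counts.

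The members, gene lists and comparisons were chosen with earlier results of these data known. All 10 members were named, and of the other pathway genes at most 5 per direction and main comparison, with the smallest adjusted p among those called with a mean of at least 50 normalized counts and groups without overlap. Nr1h2, Ppard, Ppara and Rxra were named beside the receptors outside this rule. For each receptor the 3 nearest profiles were named.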

Additional observations from a re-analysis of the deposited data

How the results depend on the processing

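Across 14 other settings and 12 fits that left out 1 library, 1732 values of the members kept their direction and their side of the threshold, 45 lost a call, 19 gained one and 14 changed sign without being called. The log2 fold changes that changed sign were those of Abcg1 (-0.0067) and Apoe (-0.17) in eYFP+ macrophages against Ly6Clo monocytes with the GC correction, and that of Apoe in eYFP- macrophages against Ly6Clo monocytes with TMM scaling (0.026), edgeR (0.013) and limma (0.10 in each of 3 fits). With libraries left out in turn, Apoe ranged from -0.26 to 0.15 and from -0.070 to 0.45 in eYFP- and eYFP+ macrophages against Ly6Clo monocytes. Between eYFP+ and eYFP- macrophages it ranged from -0.068 to 0.55, and Abcg1 from -0.40 to 0.0092. Plin2 ranged from -0.31 to 0.063 between Ly6Chi and Ly6Clo monocytes.

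Of members called, leaving out a library gave 0 to 1 between the macrophage groups, 7 to 8 between the monocyte groups and 8 to 9 between macrophages and monocytes. Against Ly6Clo monocytes it gave 6 to 7 for eYFP+ and 5 to 6 for eYFP- macrophages, and against Ly6Chi monocytes 8 to 9 and 8 to 10. Pathway genes called ranged from 0 to 2, from 4 to 12 and from 40 to 52 in the first 3 comparisons. The 2 pathway genes called between the macrophage groups were 0 without independent filtering, with the filter of 10 counts in 3 libraries, in edgeR with and without the block and in the 3 limma fits, and 1 with a replicate block in DESeq2 or a fit on the 2 groups alone. The 8 called between the monocyte groups were 4 in edgeR, 1 with a replicate block in edgeR, and 4, 4 and 2 in limma with a pseudocount of 1, of 0.1 and without a filter. A fit on the groups alone is the main one for macrophages against monocytes.

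Over all genes, 439 were called between the macrophage groups by DESeq2, 64 by edgeR and 1142 with the replicate block. Deviations of equally numbered libraries correlated at 0.39, 0.21 and 0.07 between the macrophage groups and at 0.28, 0.07 and -0.03 between the monocyte groups. These values do not settle whether equally numbered libraries share mice, which is not stated. The main fit did not take the numbers as pairs, and a pairing that exists would be ignored by it. Total-count scaling shifted all genes by a median log2 of -0.11 between the macrophage groups. The 3 libraries per group limit what can be shown: intervals between the macrophage groups spanned more than 1 log2 unit for each member.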
